A study of Mus musculus with 6 samples.

Results

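Mitochondrial respiratory complexes II, III, IV and V are enzymes of the inner mitochondrial membrane, and most of their subunits are encoded by nuclear genes. The nuclear subunits were taken from a table of gene expression in mouse liver tumors as every row whose symbol is Sdh followed by a, b, c or d, or begins with Uqcr, is Cyc1, begins with Cox and a digit from 4 to 8 followed by a, b, c or i, or begins with Atp5, leaving out 6 pseudogenes. This gave 47 of the 30236 genes listed. The tumors came from male C57BL/6 mice, either wild-type (WT) or carrying a knockout of Top1mt (KO), the gene of the mitochondrial topoisomerase IB, with littermates of heterozygous breeding as controls. All mice had received diethylnitrosamine, a liver carcinogen, at postnatal day 14 and carbon tetrachloride, a hepatotoxin, from 8 weeks of age for 14 weeks, and tumors were taken at 22 weeks. There were 3 libraries of each genotype, and p-values measure the spread between these tumors. Values are log2 expression levels as deposited, and depth is unknown.

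Complex II is succinate dehydrogenase, which feeds electrons from the citric acid cycle into the chain. Complex III passes electrons from ubiquinol to cytochrome c, complex IV hands them to oxygen, and complex V uses the resulting proton gradient to make ATP. Hepatocytes depend on this chain for the energy of gluconeogenesis, urea synthesis and protein secretion. The catalytic subunits of complex IV are encoded by mitochondrial DNA. The name core is used below for 14 nuclear subunits (Sdha to Sdhd, Cyc1, Uqcrfs1, Uqcrc1, Uqcrc2, Cox4i1, Cox5a, Cox5b, Atp5a1, Atp5b and Atp5c1) and the name small for the other subunits without the tissue forms, which include ring, rotor and stator subunits of complex V. In complex IV several positions have a broadly expressed form and a form of heart, skeletal muscle, lung or testis.

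The symbols and the biology did not match in every case. Atp5s and Atp5sl carry the Atp5 prefix but are not structural subunits of complex V, and RefSeq lists them as Dmac2l and Dmac2. Cox7a2l is a factor of respiratory supercomplexes rather than a constant complex IV subunit. By complex the 47 symbols were 4 of complex II, 9 of complex III, 17 of complex IV, 15 of complex V, and Atp5s and Atp5sl. Hence 45 of the symbols are subunits or the supercomplex factor. The GENCODE annotation places the 47 members on 18 chromosomes, with Cox7b on X.

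The knockout target was examined first. Top1mt had log2 values of 7.71, 5.99 and 8.01 (labelled WT) and 5.58, 6.41 and 6.32 (labelled KO), given here and below in the order of replicates 1, 2 and 3. WT replicate 2 lay between the libraries labelled KO and went against its label, while WT replicates 1 and 3 were higher than every library labelled KO. The difference (KO minus WT) was -1.13 (SE 0.52), with an adjusted p of 0.999 by limma with Benjamini-Hochberg adjustment. It was -1.75 without WT replicate 2 and -0.75 without WT replicate 3. Genotypes are therefore written as labelled. A second library stood apart in another way. Gm42418 had values of 12.36, 12.68 and 15.80 (labelled WT) and 22.00, 11.71 and 11.66 (labelled KO). Lars2, the mitochondrial leucyl-tRNA synthetase, had values of 9.05, 8.55 and 12.67 (labelled WT) and 20.06, 8.44 and 8.52 (labelled KO). Gm15564 had values of 4.83, 4.75 and 8.85 (labelled WT) and 16.84, 3.93 and 4.43 (labelled KO). KO replicate 1 was the highest library for these 3 genes, which were chosen after their values were seen, and WT replicate 3 was the second in order. The 22.00 of Gm42418 was the highest value of the table, above the 21.12 of albumin (Alb) in that library. Whether values of this size reflect transcripts of these genes, or the quality of the library, was not tested.

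No nuclear subunit differed between the genotypes by the test. Of the 47 members 46 passed the filter on low values, and the exception was Cox7b2. limma called 0 of the 46 at an adjusted p under 0.05, and it called 0% of all 22677 genes tested. The smallest adjusted p among the members was 0.999. At an unadjusted p under 0.05 there was 1 member lower (Atp5sl) and 0 higher in the libraries labelled KO, beside 2.56% lower and 1.79% higher of all genes tested. Groups did not overlap for Atp5d, which was higher, and for Atp5g3 and Atp5sl, which were lower, so that 1 of 46 was above and 2 of 46 below, where 3.95% and 4.33% of all genes tested did so. These shares are near those of the background.

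Most members nevertheless lay slightly to one side. Of the 46 members 39 had a positive difference and 7 a negative one, whereas 47.7% of all genes tested had a positive difference. The median difference was 0.13 over the members and -0.015 over all genes tested, a set not matched for level or transcript length. Genes with a mean log2 value of at least 9 were also compared by length, in classes set after the values were seen. Under 1 kb the median was 0.16 for 20 members and 0.11 for 227 other genes. From 1 to 2 kb it was 0.079 for 13 members and 0.0083 for 763 others, and from 2 to 4 kb 0.0015 for 3 and 0.016 for 1596. By complex the medians were 0.075 for complex II, 0.14 for complex III, 0.15 for complex IV and 0.14 for complex V. The median of complex II was -0.014 without KO replicate 2, and without KO replicate 1 those of complexes III, IV and V were 0.022, 0.0016 and -0.056. Without Atp5s and Atp5sl the median was 0.13, with 38 of 44 positive. This lean depended on the libraries included. Without KO replicate 1, 22 of 46 were positive and 24 negative, with a median of -0.0073. Without WT replicate 2, 40 of 46 were positive and the median was 0.20. With both left out 34 of 46 were positive and the median was 0.075. Without WT replicate 3 the median was 0.065, and without KO replicate 3 it was 0.22.

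The libraries differed more than the genotypes. Each member was centred on its own mean over the 6 libraries, and the median of the 46 centred values was -0.092, 0.11 and -0.14 (labelled WT) and 0.40, -0.0078 and -0.15 (labelled KO). The library KO replicate 1 lay far above the rest, WT replicate 2 was next, and the other 4 libraries were below 0. For 37 members with a mean log2 value of at least 9, a level set after the values were seen, KO replicate 1 was the highest library in 27 and the lowest in 4. KO replicate 2 was the highest in 7, and WT replicate 2 in 3. Among these 37, the SD within the libraries labelled KO exceeded that within those labelled WT in 33.

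**Figure D1:**
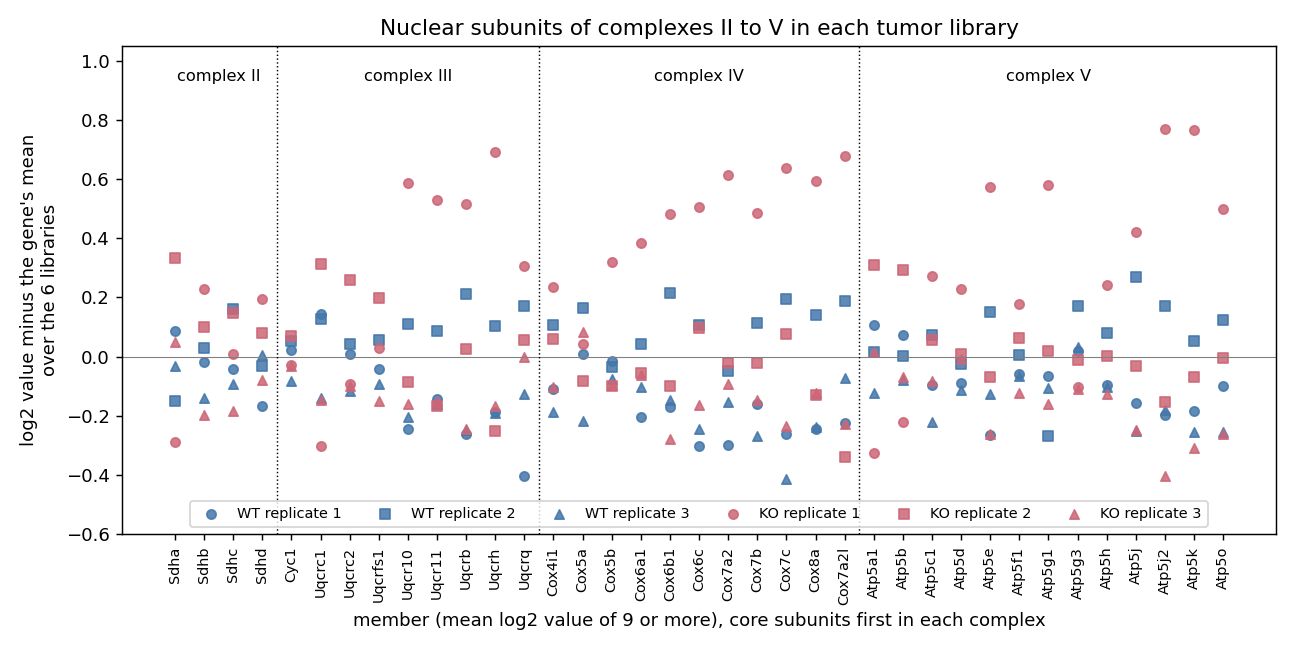
Each point is the log2 value of a member in a library minus that gene's mean over the 6 libraries, for the 37 members with a mean log2 value of at least 9, ordered by complex with core subunits first; color gives the labelled genotype and shape the replicate. KO replicate 1 was highest in 27 members, most of them small subunits, and reached 0.77 for Atp5j2, but lay at -0.32 for Atp5a1.

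The centred values of KO replicate 1 split by class of subunit. Of 22 subunits of the small class at this level 21 had their highest value in KO replicate 1, with a median centred value of 0.51, and the exception was Atp5g3 at -0.10. Of the 14 core subunits 5 had their highest value in that library and 4 their lowest, with a median of 0.019. KO replicate 2 was the highest library for 7 of the 14 core subunits and for 0 of the 22 small ones. The classes also differed in transcript length, with a median of 1441.5 bases for these core subunits and 670.5 for the small ones. The parts of class and of length in this split were not tested.

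Core subunits of complex II gave values close between genotypes. Sdha, the flavoprotein that oxidizes succinate, had log2 values of 12.20, 11.97 and 12.08 (labelled WT) and 11.82, 12.45 and 12.16 (labelled KO). KO replicate 2 was the highest and KO replicate 1 the lowest, so the libraries labelled KO spanned those labelled WT. Sdhb, the iron-sulfur subunit, had 10.79, 10.83 and 10.66 (labelled WT) and 11.03, 10.90 and 10.61 (labelled KO). The membrane anchor Sdhc had 10.67, 10.87 and 10.62 (labelled WT) and 10.72, 10.85 and 10.52 (labelled KO), and its partner Sdhd had 10.93, 11.06 and 11.10 (labelled WT) and 11.29, 11.17 and 11.01 (labelled KO). For Sdhb and Sdhd KO replicate 1 was the highest library, and the groups overlapped for all 4 genes. Sdhd had the largest positive difference of the complex, 0.13 (SE 0.14), with a 95% confidence interval of -0.18 to 0.44. Without KO replicate 1 it was 0.063, below the 0.22 of Sdha. Sdhc had the only negative one, -0.020 (SE 0.14), which turned positive when libraries were centred on their medians.

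In complex III the catalytic subunits differed little between the groups. Cyc1, cytochrome c1, had log2 values of 10.29, 10.31 and 10.18 (labelled WT) and 10.23, 10.33 and 10.23 (labelled KO), the narrowest spread among the core subunits of this complex. Uqcrfs1, the Rieske iron-sulfur protein, had 10.67, 10.77 and 10.62 (labelled WT) and 10.74, 10.91 and 10.56 (labelled KO). The core proteins also stayed within the spread between libraries. Uqcrc1 had 11.23, 11.21 and 10.95 (labelled WT) and 10.79, 11.40 and 10.94 (labelled KO), and Uqcrc2 had 11.19, 11.22 and 11.06 (labelled WT) and 11.09, 11.44 and 11.08 (labelled KO). KO replicate 2 was the highest library for Cyc1, Uqcrfs1, Uqcrc1 and Uqcrc2, and KO replicate 1 was the lowest for Uqcrc1. The largest negative difference of the complex was that of Uqcrc1, -0.088 (SE 0.19), and without KO replicate 1 it was 0.040.

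The small subunits of complex III followed another order. Uqcrq, also known as the ubiquinone-binding protein QP-C, had the largest positive difference of the complex, with log2 values of 10.33, 10.90 and 10.61 (labelled WT) and 11.04, 10.79 and 10.73 (labelled KO) and a difference of 0.24 (SE 0.18). Without WT replicate 1 it was 0.10, and then no longer the largest. WT replicate 1 was the lowest and KO replicate 1 the highest library, and WT replicate 2 lay above KO replicates 2 and 3. Uqcrh, the hinge protein that helps cytochrome c1 bind cytochrome c, had 10.98, 11.28 and 10.98 (labelled WT) and 11.86, 10.92 and 11.01 (labelled KO). Here KO replicate 1 was the highest library, WT replicate 2 came next, and KO replicate 2 was the lowest of the 6. The differences of Uqcrb, Uqcr10 and Uqcr11 were 0.20, 0.23 and 0.14, with KO replicate 1 the highest library for each, and -0.011, -0.0095 and -0.086 without it.

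In complex IV the values of Cox4i1, Cox5a and Cox5b overlapped between the groups as well. Cox4i1, the regulatory subunit that binds adenine nucleotides, had log2 values of 11.63, 11.85 and 11.56 (labelled WT) and 11.98, 11.80 and 11.64 (labelled KO). Cox5a had 9.04, 9.20 and 8.82 (labelled WT) and 9.08, 8.95 and 9.12 (labelled KO), and Cox5b, a zinc-binding subunit, had 10.39, 10.37 and 10.32 (labelled WT) and 10.72, 10.30 and 10.30 (labelled KO). WT replicate 2 was the highest library for Cox5a and KO replicate 1 for Cox4i1 and Cox5b. The differences were 0.13 (SE 0.16), 0.029 (SE 0.15) and 0.084 (SE 0.15) in that order, and without KO replicate 1 those of Cox4i1 and Cox5b were 0.041 and -0.055.

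Among the small subunits of complex IV the broadly expressed forms had their highest values in the same libraries. Cox7a2 had the largest difference of any member with a mean log2 value of at least 9, with log2 values of 10.35, 10.61 and 10.50 (labelled WT) and 11.27, 10.63 and 10.56 (labelled KO). The highest library by far was KO replicate 1, and KO replicate 3 lay below WT replicate 2. Its difference was 0.33 (SE 0.20), with a 95% confidence interval of -0.14 to 0.80, but 0.11 without KO replicate 1, and then no longer the largest. Cox6a1 had 11.00, 11.24 and 11.10 (labelled WT) and 11.58, 11.15 and 11.14 (labelled KO), Cox6b1 had 11.01, 11.40 and 11.04 (labelled WT) and 11.67, 11.09 and 10.91 (labelled KO), and Cox7b had 10.64, 10.91 and 10.53 (labelled WT) and 11.28, 10.78 and 10.65 (labelled KO). Each had its highest value in KO replicate 1 and its second highest in WT replicate 2. Cox8a showed the same order, with 10.95, 11.33 and 10.95 (labelled WT) and 11.78, 11.06 and 11.07 (labelled KO). The differences of Cox6c and Cox7c, subunits with a single form, were 0.29 and 0.32, and 0.11 and 0.081 without KO replicate 1. Cox7a2l, whose product joins complexes III and IV and exists in a shortened form in C57BL/6 mice, had 10.39, 10.81 and 10.55 (labelled WT) and 11.30, 10.28 and 10.39 (labelled KO). Its difference was 0.074, and -0.25 without KO replicate 1.

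The alpha and beta subunits of complex V had nearly equal means in the groups. Atp5a1, the alpha subunit, had log2 values of 13.38, 13.29 and 13.15 (labelled WT) and 12.95, 13.59 and 13.29 (labelled KO). Atp5b, the catalytic beta subunit, had 13.73, 13.66 and 13.58 (labelled WT) and 13.44, 13.95 and 13.59 (labelled KO). In both, KO replicate 2 was the highest and KO replicate 1 the lowest library, and the differences were 0.0015 and 0.0028, with 95% confidence intervals of -0.49 to 0.50 and -0.48 to 0.49. Under quantile normalization they were -0.063 and -0.052. Atp5c1, the gamma subunit of the rotor, had 11.43, 11.60 and 11.31 (labelled WT) and 11.80, 11.58 and 11.45 (labelled KO), with KO replicate 1 the highest library and a difference of 0.16 (SE 0.16), or 0.068 without that library.

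Atp5d and Atp5g3, the subunits without overlap between the groups, both belong to complex V. Atp5d, the delta subunit of the rotor stalk, had log2 values of 10.72, 10.78 and 10.70 (labelled WT) and 11.04, 10.82 and 10.80 (labelled KO), or 10.73 ± 0.045 (SD, n = 3) in the libraries labelled WT and 10.89 ± 0.13 (SD, n = 3) in those labelled KO. Every library labelled KO was above every one labelled WT, which did not hold after median centring. The difference was 0.15 (SE 0.13), the adjusted p by limma was 0.999, and the two-sided exact permutation p was 0.1, the smallest that 3 libraries against 3 allow. Atp5k, the e subunit at the membrane, had 9.94, 10.18 and 9.87 (labelled WT) and 10.90, 10.06 and 9.82 (labelled KO). Atp5j2, the f subunit, had 10.45, 10.82 and 10.47 (labelled WT) and 11.42, 10.50 and 10.25 (labelled KO). KO replicate 1 stood above all other libraries in both, while KO replicate 3 was the lowest. The differences of Atp5e, Atp5f1, Atp5h, Atp5j, Atp5l and Atp5o lay between 0.079 and 0.16, and without KO replicate 1 between -0.15 and 0.011.

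Of the symbols outside the complexes, Atp5sl reached an unadjusted p under 0.05. Its product, now named Dmac2, is known from the assembly of complex I. Atp5sl had log2 values of 8.72, 8.58 and 8.58 (labelled WT) and 8.32, 8.07 and 8.19 (labelled KO), or 8.63 ± 0.082 (SD, n = 3) in the libraries labelled WT and 8.19 ± 0.12 (SD, n = 3) in those labelled KO. Every library labelled KO was below every one labelled WT. The difference was -0.43 (SE 0.14), with a 95% confidence interval of -0.76 to -0.11, an unadjusted p of 0.016 by limma, an adjusted p of 0.999 by limma and a two-sided exact permutation p of 0.1. Without WT replicate 1 or without KO replicate 2 no member was at an unadjusted p under 0.05. Atp5s, also called factor B, had a difference of 0.25 (SE 0.27).

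Precision was limited by the spread between tumors. Over the 37 members with a mean log2 value of at least 9, differences ran from -0.15 to 0.33 and standard errors from 0.12 to 0.29. The 95% confidence intervals of all 37 lay within 1 log2 unit of 0, and those of 15 within 0.5.

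Deviations varied with transcript length. Across the 37 members, Spearman's correlation of the centred value with the length of the principal transcript was 0.63, -0.41 and 0.54 (labelled WT) and -0.66, 0.68 and 0.43 (labelled KO). Genes of a library share its RNA and preparation and are not independent, so these are descriptions. It was negative in KO replicate 1 and WT replicate 2 and positive in the other 4 libraries. The signs stayed the same with the union of exons or the shortest principal transcripts as the length, and KO replicate 1 then had -0.55 and -0.70. Length classes were set after the values were seen. Members under 1 kb (20 of the 37) had median centred values of -0.19, 0.12 and -0.19 (labelled WT) and 0.51, -0.063 and -0.16 (labelled KO). The 227 other genes of this length and level had -0.16, 0.17 and -0.14 (labelled WT) and 0.53, -0.22 and -0.20 (labelled KO). Under 1 kb the medians of members and other genes were thus close in KO replicate 1. Members of 1 to 2 kb (13 of the 37) had -0.058, 0.052 and -0.11 (labelled WT) and 0.20, 0.070 and -0.10 (labelled KO), and the 763 other genes of this class -0.022, 0.089 and -0.075 (labelled WT) and 0.035, 0.0014 and -0.054 (labelled KO), so that here members were above other genes in KO replicate 1. Members of 2 to 4 kb (Sdha, Sdhc and Atp5a1) had 0.085, 0.014 and -0.091 (labelled WT) and -0.29, 0.31 and 0.015 (labelled KO), while the 1596 other genes of this class lay near 0, at 0.0058, 0.021 and -0.055 (labelled WT) and -0.0098, 0.027 and 0.0059 (labelled KO). Over 4 kb the order did not go on: the single member, Atp5g1, had 0.58 in KO replicate 1, and the 1910 other genes had a median of 0.059 there. Across the 4496 other genes the correlation was 0.072, -0.14 and 0.15 (labelled WT) and -0.036, 0.0037 and 0.064 (labelled KO). The part of transcript length, or of RNA quality, in the members' values was not tested.

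**Figure D2:**
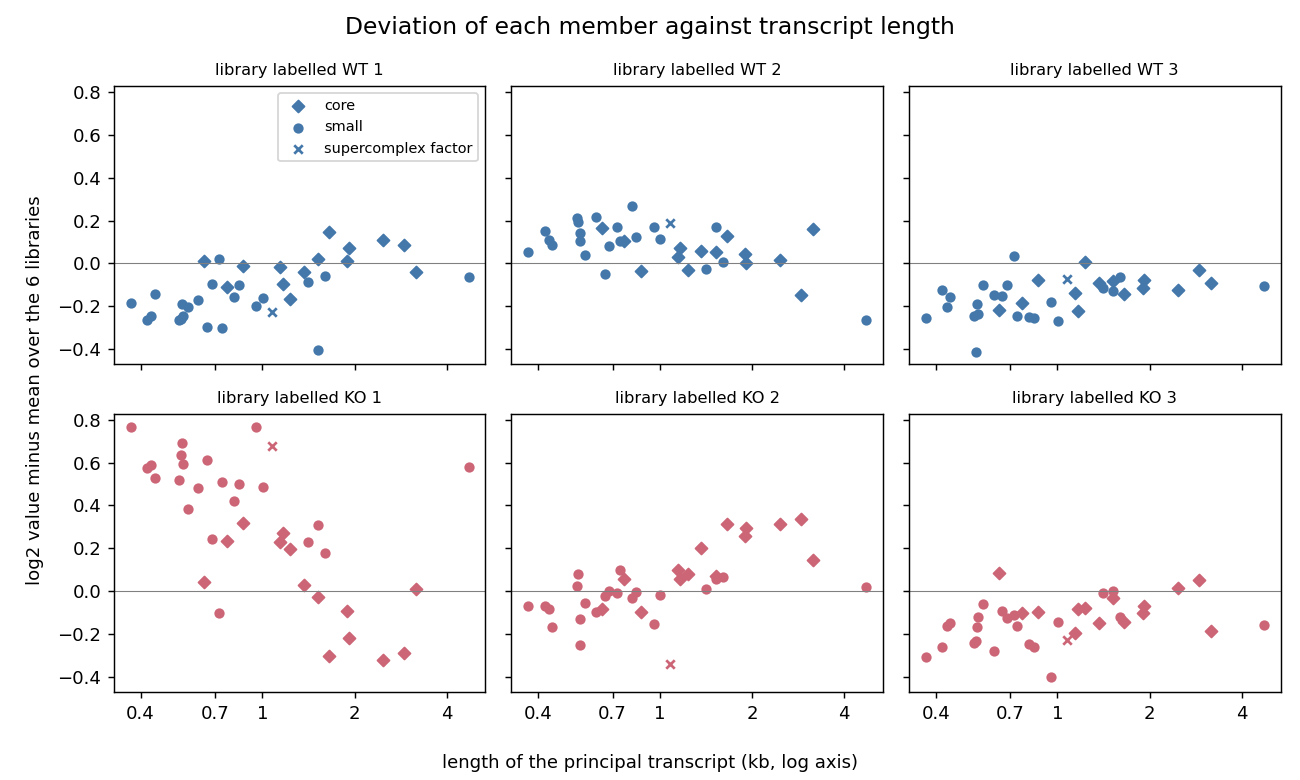
Each panel is a library, and each point a member with a mean log2 value of at least 9: its principal transcript's length in kb (log axis) against its log2 value minus its mean over the 6 libraries, with core subunits as diamonds, small subunits as circles and Cox7a2l as a cross. Short members were high in KO replicate 1, where Spearman's correlation was -0.66, and the point at the far right of each panel is Atp5g1, whose other principal transcript has 596 bases.

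Several subunits could share reads with copies. Against all other genes' transcripts, 9 of the 47 members had a stretch of at least 100 bases at 98% identity or more, and for Uqcrb, Cox7c, Atp5g2, Atp5h and Atp5l such stretches covered more than 50% of the transcript in total. For 8 of the 9 a copy is itself listed in the table. Unique mapping, as the study's methods state it, discards reads that fit both places, so levels of these members are uncertain. In addition the exons of 11 members overlap a listed gene on the opposite strand, Atp5j among them with Gabpa, which encodes a transcription factor. The strand setting of the counting is not given in the sources used here.

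Tissue isoforms of complex IV were far below their broadly expressed partners. Levels were compared per kb, as the log2 value minus log2 of the principal transcript's length. Cox4i1 exceeded Cox4i2, a lung form that responds to oxygen, by 10.34, 10.61 and 11.44 (labelled WT) and 10.22, 10.23 and 11.66 (labelled KO) log2 units. Cox6a1 exceeded Cox6a2, the form of heart and muscle, by 9.15, 9.39 and 10.59 (labelled WT) and 9.78, 10.77 and 8.06 (labelled KO). In both pairs every library had the same order. Cox6b1 exceeded the testis form Cox6b2 by 6.77, 10.35 and 10.09 (labelled WT) and 9.45, 10.28 and 9.44 (labelled KO), least in WT replicate 1, where Cox6b2 itself was highest. Cox8a exceeded Cox8b, again a muscle form, by 8.89, 8.99 and 9.85 (labelled WT) and 10.65, 9.38 and 9.29 (labelled KO). Cox7b2 lay near the lowest value of the table in every library and did not pass the filter, so no gap to Cox7b is given.

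Log2 values of the tissue forms themselves were low and scattered. Cox4i2 had 1.23, 1.18 and 0.059 (labelled WT) and 1.70, 1.51 and -0.082 (labelled KO), and Cox6a2 had 2.09, 2.11 and 0.76 (labelled WT) and 2.06, 0.63 and 3.33 (labelled KO). The groups overlapped in both. Cox6b2 had 4.16, 0.97 and 0.87 (labelled WT) and 2.14, 0.72 and 1.38 (labelled KO), the largest negative difference in complex IV at -0.59 (SE 0.89), which was 0.49 without WT replicate 1. Cox6a2 had the largest positive one, 0.35 (SE 0.73), which was -0.094 without WT replicate 3 and -0.31 without KO replicate 3. Cox8b had 1.44, 1.73 and 0.49 (labelled WT) and 0.53, 1.07 and 1.17 (labelled KO), and Cox7b2 had -2.22, -2.20 and -2.21 (labelled WT) and -2.20, -2.21 and -2.24 (labelled KO). Low values of this kind may be compressed, as far as the transform, which the sources do not name, shrinks weakly expressed genes.

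Cox7a1, the form of heart and skeletal muscle, was the tissue form with the highest level. Its log2 values were 4.76, 4.37 and 4.22 (labelled WT) and 4.66, 3.23 and 3.96 (labelled KO), with a difference of -0.50 (SE 0.48), which was -0.14 without KO replicate 2 and -0.85 without KO replicate 1. Per kb, Cox7a2 exceeded it by 4.85, 5.49 and 5.54 (labelled WT) and 5.86, 6.65 and 5.86 (labelled KO) log2 units. This gap did not overlap between the groups, with a two-sided exact permutation p of 0.1, the smallest possible here. The gaps of Cox4i1, Cox6a1, Cox6b1 and Cox8a to their tissue forms did overlap. As single genes, 8.28% of all genes tested had no overlap in either direction. Markers of striated muscle were low: 9 of 10 passed the filter, their summed log2 level was 4.34, 4.32 and 4.01 (labelled WT) and 4.08, 3.99 and 3.31 (labelled KO), and the most abundant was Tnni3, with 3.25, 3.35 and 2.79 (labelled WT) and 2.87, 1.59 and 0.67 (labelled KO).

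The c subunit of the ATP synthase ring is encoded by Atp5g1, Atp5g2 and Atp5g3, whose mature proteins are identical. Atp5g3 had log2 values of 11.23, 11.38 and 11.24 (labelled WT) and 11.11, 11.20 and 11.10 (labelled KO), so every library labelled KO lay below every one labelled WT, which again did not hold after median centring. The difference was -0.15 (SE 0.13), with an adjusted p by limma of 0.999, a two-sided exact permutation p of 0.1 and a 95% confidence interval of -0.44 to 0.14. Atp5g1 had 10.12, 9.92 and 10.08 (labelled WT) and 10.76, 10.20 and 10.02 (labelled KO), the largest positive difference in complex V at 0.29 (SE 0.20), with KO replicate 1 well above the rest. Without that library it was 0.076, below those of Atp5a1 and Atp5b. Atp5g2 had 7.94, 8.67 and 8.25 (labelled WT) and 9.17, 8.02 and 8.16 (labelled KO). Per kb, Atp5g3 exceeded Atp5g1 by 3.82, 4.17 and 3.87 (labelled WT) and 3.05, 3.70 and 3.78 (labelled KO) log2 units, and the groups did not overlap in this gap (two-sided exact permutation p = 0.1). Its size depended on the length used, with a mean over the 6 libraries of 3.73, 2.20 with the union of exons and 0.76 with the shortest principal transcripts. Atp5g3 was above Atp5g2 by 2.85 on average, and by 2.46 and 2.14 with these other lengths. Between the groups this gap overlapped, and so did that of Atp5g1 and Atp5g2 (two-sided exact permutation p = 0.6 for each). The order of Atp5g1 and Atp5g2 depended on the length used: Atp5g1 minus Atp5g2 was -0.88 with a principal transcript of 4715 bases for Atp5g1, and 1.38 with the shortest principal transcripts.

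**Figure D3:**
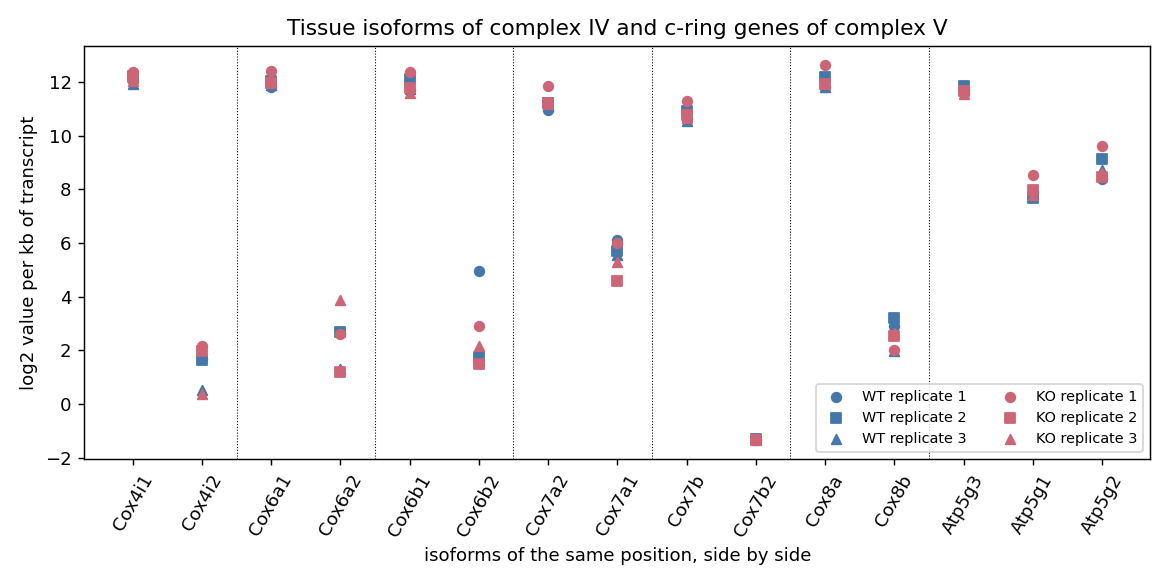
Log2 values per kb of principal transcript for forms of the same position, 1 point for each library, colored by labelled genotype and shaped by replicate. Every broadly expressed form of complex IV was above its tissue form in all 6 libraries, with Cox7b2 near the lowest value of the table and the smallest gap, 4.85, between Cox7a2 and Cox7a1 in WT replicate 1.

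With all libraries included, assembly factors had median differences nearer 0 than the subunits. Many of these proteins insert cofactors or help to build the complexes without staying in them. Lrpprc, Slirp and Taco1 do not act in this way but are counted among the factors of complex IV. All 4 factors of complex II, 6 of complex III, 22 of complex IV and 4 of complex V were tested, and 0 of them were at an unadjusted p under 0.05 in limma. The median differences were -0.0047, 0.0086, -0.064 and -0.019. When KO replicate 1 was left out, these medians were farther from 0 than those of the subunits in every complex. The medians of the subunits were then 0.029, 0.022, 0.0016 and -0.056, and the difference from the factors was not tested. For complex II, Sdhaf4 had the largest positive difference, 0.071, with 6.90, 6.58 and 6.90 (labelled WT) and 7.31, 6.39 and 6.90 (labelled KO), but -0.15 without KO replicate 1. Sdhaf3 had the largest negative one, -0.081, with 7.17, 6.79 and 7.52 (labelled WT) and 7.22, 7.21 and 6.81 (labelled KO). Both lay within the spread between libraries. For complex III, Lyrm7, a factor for the Rieske protein, had the largest positive difference, 0.42, with 3.50, 4.52 and 4.46 (labelled WT) and 4.37, 4.91 and 4.45 (labelled KO), but 0.087 without WT replicate 1. Uqcc3 had the largest negative one, -0.15, with 7.73, 8.07 and 7.84 (labelled WT) and 7.94, 7.34 and 7.90 (labelled KO). Groups overlapped in both. For complex IV, Coa4 had 0.26 with 6.41, 6.57 and 6.12 (labelled WT) and 6.96, 6.29 and 6.65 (labelled KO), but 0.099 without KO replicate 1, and then not the largest of its list. Cox10, which makes heme O for the catalytic subunit, had -0.33 with 7.46, 7.83 and 7.34 (labelled WT) and 6.79, 7.47 and 7.39 (labelled KO). KO replicate 1 was the lowest library for Cox10, whose difference was -0.12 without that library. For complex V, Fmc1 had 0.053 with 7.36, 7.14 and 7.30 (labelled WT) and 7.72, 7.15 and 7.09 (labelled KO), but -0.15 without KO replicate 1. Atpaf2 had -0.18 with 7.86, 8.00 and 8.16 (labelled WT) and 7.93, 7.74 and 7.83 (labelled KO).

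Partners outside the symbol rule were also mostly high in KO replicate 1. Of 6 genes tested 5 had a positive difference, and the median was 0.048. Ndufa4, which despite its name is a subunit of complex IV, had the largest, 0.22 (SE 0.19), with log2 values of 11.29, 11.46 and 11.21 (labelled WT) and 11.89, 11.53 and 11.21 (labelled KO). Higd1a, a small inner membrane protein, had the lowest, -0.0076, with 8.65, 8.91 and 8.91 (labelled WT) and 9.15, 8.80 and 8.50 (labelled KO). In both KO replicate 1 was the highest library. Cycs, cytochrome c itself, had a difference of 0.019, and Atpif1, the inhibitor of the ATP synthase, of 0.051. When KO replicate 1 was left out, as many of these genes were negative as positive, and their median was negative. The difference of Ndufa4 was then 0.047, below the 0.11 of Cycs, and those of Atpif1 and Higd1a were -0.22 and -0.17. The subunits encoded by mitochondrial DNA were not analysed here.

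Other nuclear groups for mitochondria were also highest in KO replicate 1 and next in WT replicate 2. Of 37 genes listed for complex I, Ndufa4 and Ndufa4l2 among them so that Ndufa4 is counted in 2 lists, 27 had a positive difference and the median was 0.079, with median centred values of -0.12, 0.13 and -0.15 (labelled WT) and 0.42, -0.054 and -0.22 (labelled KO). Of 76 mitochondrial ribosomal proteins tested 53 were positive, the median was 0.075, and the median centred values were -0.10, 0.092 and -0.041 (labelled WT) and 0.23, 0.012 and -0.14 (labelled KO). limma called 0 of either group at an adjusted p under 0.05, with 0 and 3 at an unadjusted p under 0.05. The 3 were 2 of 76 higher and 1 of 76 lower, beside 1.79% higher and 2.56% lower of all genes tested.

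Regulators of nuclear respiratory genes were tested as a list of 8. Esrra, the nuclear receptor that acts with the Pgc-1 coactivators on these genes, had the largest negative difference, -0.46 (SE 0.15). Its log2 values were 8.72, 8.85 and 8.77 (labelled WT) and 8.14, 8.50 and 8.33 (labelled KO), and the groups did not overlap. The adjusted p was 0.999 and the unadjusted p 0.0148 by limma. Esrra was thus 1 of 8 lower at an unadjusted p under 0.05, beside 2.56% of all genes tested. It was also 1 of 8 lower without overlap, beside 4.33% of all genes tested. Yy1 had the largest positive difference, 0.075, with 9.57, 9.74 and 9.46 (labelled WT) and 9.54, 9.70 and 9.76 (labelled KO). Of the 8 regulators 6 were negative, and the median was -0.063. Nrf1 and Gabpa had differences of 0.032 and -0.025.

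Promoters of the members were examined for motifs of these regulators. RefSeq sequence of the 250 bases before the annotated start (GRCm38.p6) was matched for 37 members. The letters TGCGCA or GCGCATGCG, of the NRF1 type, were found on either strand in 8 of the 37 (21.6%), beside 7.93% of 27025 genes with a promoter. For TGCGCA alone the shares were 18.9% and 7.36%, and for GCGCATGCG, which can overlap TGCGCA, 10.8% and 1.64%. CCGGAAGT, of the ETS type that GABPA binds, was in 3 of the 37 (8.11%) and in 3.23% of all. A match is a description of sequence only. The last 120 bases before the start are shown for a core gene that was lowest in KO replicate 1 and for small subunits that were highest there, with motif matches in capitals. Each window shown holds a match, whereas 11 of the 37 members hold any in the 250 bases. Atp5b, also lowest in KO replicate 1, and Cox7a2 and Cox8a, also highest there, hold none. The windows are chr13:74350241-74350360 for Sdha, chr4:116075071-116075190 for Uqcrh and chr5:108434400-108434519 for Atp5k, all on the minus strand. Sdha holds TGCGCA at 2 places, Uqcrh the reverse complement of CCGGAAGT, and Atp5k overlapping matches of GCGCATGCG on both strands.
Sdha: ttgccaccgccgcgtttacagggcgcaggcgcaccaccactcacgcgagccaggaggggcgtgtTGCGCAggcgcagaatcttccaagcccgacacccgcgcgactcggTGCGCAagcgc
Uqcrh: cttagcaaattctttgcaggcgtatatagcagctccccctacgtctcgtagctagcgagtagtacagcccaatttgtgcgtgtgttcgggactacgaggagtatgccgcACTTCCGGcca
Atp5k: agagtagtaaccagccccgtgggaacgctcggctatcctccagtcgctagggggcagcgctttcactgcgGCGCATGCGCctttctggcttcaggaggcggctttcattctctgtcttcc

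The tissue was checked with markers of liver cells, since in bulk tumor fewer cells of a type and less RNA per cell cannot be told apart. All 8 hepatocyte markers were tested, Alb was the most abundant, and their summed log2 level was 20.96, 21.38 and 20.69 (labelled WT) and 21.51, 20.92 and 21.25 (labelled KO). Ttr, a plasma carrier protein, had the largest positive difference, 0.58 (SE 0.43), with 16.11, 16.37 and 15.65 (labelled WT) and 16.70, 16.38 and 16.78 (labelled KO). Tat, an enzyme of tyrosine breakdown, had the largest negative one, -0.17, with 14.07, 13.25 and 13.53 (labelled WT) and 13.05, 12.94 and 14.34 (labelled KO), but 0.054 without WT replicate 1 and -0.62 without KO replicate 3. Groups did not overlap for Ttr. Of the markers 5 were positive and 3 negative.

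Stellate cell, fibroblast and mural markers had their lowest summed level in KO replicate 1, though not every marker was lowest there. Of 10 tested, 9 had a negative difference, and the summed log2 level was 14.36, 13.24 and 13.06 (labelled WT) and 12.22, 13.98 and 13.28 (labelled KO), led by Col3a1. When KO replicate 1 was left out, only Lrat (-0.72) and Dcn (-0.29) had a negative difference, and the other markers a positive one. With all libraries included the ends of the list were as follows. Lrat, which stores retinol in stellate cells, had the largest negative difference, -0.79 (SE 0.29), with 9.54, 8.88 and 8.96 (labelled WT) and 8.19, 8.92 and 7.91 (labelled KO). Acta2, smooth muscle actin, had the only positive one, 0.39, with 8.24, 8.01 and 6.63 (labelled WT) and 7.00, 8.31 and 8.75 (labelled KO). The groups overlapped in both. So KO replicate 1 was the library with the lowest summed level of these markers and the highest median of the subunits, and the part of cell makeup in the subunits' values was not tested.

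Cholangiocyte markers held the largest differences of any list. The 7 markers had a summed log2 level of 12.66, 12.20 and 11.66 (labelled WT) and 12.08, 11.76 and 12.64 (labelled KO), led by Spp1, with 3 positive and 4 negative. Krt19, a keratin of bile ducts, had a difference of -2.68 (SE 0.69), with 6.11, 4.75 and 6.93 (labelled WT) and 2.86, 4.38 and 2.50 (labelled KO). Every library labelled KO was below every one labelled WT, and the adjusted p by limma was 0.987. Among 8 endothelial markers, with a summed level of 13.05, 12.81 and 12.85 (labelled WT) and 12.91, 12.99 and 13.20 (labelled KO) led by Stab2, 6 were positive. Cdh5, the cadherin of endothelial junctions, had the largest difference, 0.40 (SE 0.16), with 9.96, 9.47 and 9.78 (labelled WT) and 10.09, 10.07 and 10.26 (labelled KO) and no overlap. Clec4g, a lectin of sinusoidal endothelium, had the lowest, -0.073, with 8.32, 8.29 and 8.21 (labelled WT) and 7.97, 7.81 and 8.82 (labelled KO).

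Immune, muscle and fat markers completed the check, and limma called 0 genes of any marker list at an adjusted p under 0.05. At an unadjusted p under 0.05 were Cdh5 (higher in the libraries labelled KO) and Lrat, Krt19, Krt7 and Tnni3 (lower). They were 1 of 8 endothelial, 1 of 10 stellate, fibroblast and mural, 2 of 7 cholangiocyte and 1 of 9 muscle markers tested. The other marker lists had 0. Of all genes tested 1.79% were higher and 2.56% lower at this p, and 3.95% were higher and 4.33% lower without overlap. The 8 macrophage markers had a summed log2 level of 12.34, 12.03 and 13.01 (labelled WT) and 12.01, 12.41 and 12.65 (labelled KO), led by Csf1r, with 5 positive. Vsig4 had 0.22 with 8.57, 8.66 and 9.30 (labelled WT) and 8.90, 9.07 and 9.23 (labelled KO), and C1qa, a complement component, had -0.30 with 9.95, 9.69 and 10.32 (labelled WT) and 9.61, 9.76 and 9.67 (labelled KO). Both overlapped between the groups. Of the 8 lymphocyte markers 6 were positive, with a median difference of 0.17. Cd3g had 0.90 with 3.16, 2.57 and 2.44 (labelled WT) and 3.55, 3.83 and 3.50 (labelled KO), and Cd3e had -1.03 with 3.27, 2.94 and 2.18 (labelled WT) and 1.14, 2.01 and 2.15 (labelled KO). These chains of 1 receptor complex went in opposite directions without overlap. Of 10 muscle markers Myh1 had the largest positive difference, 0.31, with 0.061, 0.35 and 0.26 (labelled WT) and 0.31, 1.53 and -0.25 (labelled KO), and Tnni3 the largest negative, -1.42. Of 8 adipocyte markers 6 were tested, with a summed level of 9.22, 9.19 and 9.09 (labelled WT) and 9.15, 9.98 and 8.67 (labelled KO) led by Fabp4. Cidea had 1.72 with 2.81, 4.11 and 1.94 (labelled WT) and 4.05, 3.75 and 6.21 (labelled KO), and Retn had -0.26 with 1.38, 0.45 and 0.39 (labelled WT) and 0.43, 0.32 and 0.70 (labelled KO).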

How the data were processed

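RNA from 3 liver tumors labelled WT and 3 labelled KO was sequenced by the authors from stranded libraries. The authors deposited log2 values per gene symbol, without naming the transform; counts and depth cannot be recovered, so no count test was run. The study's methods name BWA with a mouse build written as Mm 8, unique mapping, featureCounts and DESeq2, whereas the submitters' processing notes name STAR 2.5.1 and GRCm38. The disagreement was not resolved, and no position is taken from the table. In it 5 symbols occur more than once, and 3 columns without a name were not used. The comparison of genotypes used limma 3.58.1 under R 4.3.3 (lmFit, eBayes with a trend, Benjamini-Hochberg), on genes above the lowest 25% by mean over all libraries; on simulated data it missed every gene at the smallest shift put in and found most at the largest. Lengths came from GENCODE M21 (GRCm38), using the transcript of best APPRIS rank, the longest where several share it; copies were sought with blastn 2.17.0. Named genes were Top1mt, core subunits, tissue isoforms, the ends of each complex and list, and members at an unadjusted p under 0.05; 2 list genes are not reported here. Others with values in every library (Uqcrh, Atp5d, Atp5j2 and Atp5k) were chosen after their values were seen. Alternatives were no trend, quantile normalization, median centring, other filters, a replicate block and libraries left out; those on transcript length, and leaving out libraries for genes outside the naming rule, were added after the data were seen. A first run with other length classes and another minimum length for copies was replaced. The members and lists were chosen with earlier results of these data known.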

Additional observations from a re-analysis of the deposited data

How the results depend on the processing

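Members past an adjusted p of 0.05 numbered 0 under each of the 13 alternatives run, and the lowest adjusted p of a named gene under any of them was 0.604. The count at an unadjusted p under 0.05 was 1 in all but 2 of them and ranged from 0 to 1 with 1 library left out. Members without overlap, 3 in all, numbered 1 after median centring (Atp5sl), 3 to 14 with 1 library left out, and 17 without WT replicate 2 and KO replicate 1. The share of members was 6.52% beside 8.28% of all genes tested, 30.43% beside 18.34% without WT replicate 2 (the 14), and 36.96% beside 33.60% without those 2. It was 19.57% beside 15.87% without KO replicate 3. Shares were below those of all genes without WT replicate 1 (6.52% beside 16.18%) and WT replicate 3 (8.70% beside 17.39%). This also held without KO replicate 1 (13.04% beside 21.51%) and KO replicate 2 (10.87% beside 16.90%). The median difference over the members, 0.13, ranged from -0.0073 to 0.22 and turned negative without KO replicate 1; it is smaller than the SD between libraries (0.22). With the replicate number as a block the counts were 0 and 1 and the median 0.13. Deviations of same-numbered libraries correlated at -0.12, -0.076 and 0.052, so the numbers do not pair them, and not every library correlated best with its own number; the block changed no call.

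Of 31 named genes followed, none of which was called, 19 changed sign under some alternative, and the cause was not tested. Quantile normalization gave -0.0018 for Sdha, -0.0028 for Cyc1, -0.063 for Atp5a1 and -0.052 for Atp5b, and median centring 0.034 for Sdhc. Without WT replicate 2 and KO replicate 1 the differences were 0.046 for Sdhc, 0.082 for Uqcrc1, -0.052 for Cox5b, -0.029 for Cox6b1, -0.14 for Cox7a2l, 0.15 for Cox8b and -0.0055 for Atp5g2. With 1 library or those 2 left out, the differences ranged from -0.15 to 0.23 for Cox6b1, from -1.46 to 0.49 for Cox6b2, from -0.25 to 0.26 for Cox7a2l, from -0.20 to 0.37 for Atp5g2, from -0.098 to 0.068 for Sdhc, from -0.034 to 0.050 for Cyc1, from -0.075 to 0.13 for Uqcrc2, from -0.072 to 0.12 for Cox5a, from -0.15 to 0.17 for Atp5a1, from -0.14 to 0.12 for Atp5b, from -0.16 to 0.78 for Cox4i2, from -0.31 to 1.04 for Cox6a2, from -0.0051 to 0.21 for Sdhb, from -0.27 to 0.082 for Uqcrc1, from -0.055 to 0.15 for Cox5b, from -0.012 to 0.36 for Cox8a, from -0.087 to 0.22 for Sdha, from -0.034 to 0.14 for Uqcrfs1 and from -0.67 to 0.15 for Cox8b. For the other named genes they ranged from -1.75 to -0.75 for Top1mt, from 0.063 to 0.20 for Sdhd, from 0.041 to 0.21 for Cox4i1, from 0.068 to 0.25 for Atp5c1, from 0.031 to 0.25 for Cox6a1, from -0.89 to -0.14 for Cox7a1, from 0.11 to 0.46 for Cox7a2, from 0.023 to 0.34 for Cox7b, from 0.016 to 0.45 for Atp5g1, from -0.18 to -0.087 for Atp5g3, from 0.10 to 0.39 for Uqcrq and from -0.52 to -0.37 for Atp5sl. For the rest of the genes with a printed difference, leaving out 1 library, added after the data were seen, gave -0.12 to 0.35 for Uqcrh, -0.011 to 0.37 for Uqcrb, -0.0095 to 0.37 for Uqcr10, -0.086 to 0.26 for Uqcr11, 0.11 to 0.45 for Cox6c, 0.081 to 0.52 for Cox7c, 0.076 to 0.19 for Atp5d, -0.087 to 0.33 for Atp5e, 0.011 to 0.16 for Atp5f1, -0.023 to 0.16 for Atp5h, -0.094 to 0.25 for Atp5j, -0.21 to 0.38 for Atp5j2, -0.061 to 0.48 for Atp5k, -0.15 to 0.23 for Atp5l, -0.056 to 0.33 for Atp5o, 0.095 to 0.36 for Atp5s, -0.15 to 0.31 for Sdhaf4, -0.27 to 0.098 for Sdhaf3, 0.087 to 0.60 for Lyrm7, -0.25 to 0.045 for Uqcc3, 0.099 to 0.43 for Coa4, -0.46 to -0.12 for Cox10, -0.15 to 0.17 for Fmc1, -0.25 to -0.099 for Atpaf2, 0.047 to 0.39 for Ndufa4, -0.17 to 0.15 for Higd1a, -0.071 to 0.13 for Cycs, -0.22 to 0.31 for Atpif1, -0.55 to -0.37 for Esrra, 0.0094 to 0.15 for Yy1, -0.10 to 0.17 for Nrf1, -0.083 to 0.048 for Gabpa, 0.38 to 0.75 for Ttr, -0.62 to 0.078 for Tat, -1.08 to -0.57 for Lrat, -0.11 to 0.90 for Acta2, -3.27 to -2.18 for Krt19, 0.27 to 0.51 for Cdh5, -0.38 to 0.12 for Clec4g, 0.089 to 0.45 for Vsig4, -0.45 to -0.13 for C1qa, 0.76 to 1.12 for Cd3g, -1.33 to -0.71 for Cd3e, -0.19 to 0.70 for Myh1, -2.00 to -0.90 for Tnni3, 0.95 to 2.30 for Cidea and -0.43 to 0.061 for Retn. For the isoform levels, Atp5g1 minus Atp5g2 was 0.26 with the union of exons and 1.38 with the shortest principal transcript. Depth limits could not be given, since depth is unknown.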
